A study of Homo sapiens with 27 samples.

Results

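CPSF1 knockdown in LNCaP cells was followed in 9 of the 27 Poly(A)-ClickSeq (PAC-seq) libraries of the series. LNCaP is an androgen-sensitive human prostate carcinoma line. The libraries were chosen by their titles. They are 3 with a control shRNA (CTRL sh) and 6 with an shRNA against CPSF1, 3 each with CPSF1 sh1 and CPSF1 sh2. All 9 cultures were LNCaP cells transduced with lentivirus, selected with 2 μg/mL puromycin and grown for 72 h in RPMI medium with 10% FBS. The control vector is non-silencing, so the control cells also carry a vector and went through selection. The methods call the libraries biological replicates and do not say which cultures were transduced separately, so the p-values measure the spread between these libraries. Nothing in the labels says that a line is a single clone.

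CPSF1 is the largest protein of CPSF, the cleavage and polyadenylation specificity factor. This complex binds the AAUAAA signal near the end of a nascent transcript, and other factors bind the sequence that follows it. The transcript is then cut and a poly(A) tail is added. When the signal of a gene is passed over, RNA polymerase II transcribes on into downstream sequence, and a tail can be added at a later site or in the next gene. Tails can also be added early, within an intron or a coding exon. PAC-seq primes on the tail, so a read reports where a transcript ended. Reads were counted per gene in 3′ UTRs, in introns, in coding exons (CDS) and in the 10 kb downstream of the gene. The comparison asks which genes, and which kinds of genes, gained or lost ends in each place.

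Depth per library over the 4 tables ran from 3856706 to 11239076 reads, and the 10 kb table was the shallowest with 285311 to 683045 reads per library. No pair of replicates agreed within sampling noise. CPSF1 3′ UTR reads stood at 169, 132 and 127 CPM in the control libraries, 63.1, 50.9 and 65.5 CPM with CPSF1 sh1 and 49.1, 91.7 and 58.2 CPM with CPSF1 sh2. All 6 knockdown libraries lay below all 3 controls (log2 fold change -1.19 ± 0.17, adjusted p = 8.31e-05). Its intron reads (log2 fold change 0.31 ± 0.25, adjusted p = 0.46) and 10 kb reads (log2 fold change 0.95 ± 0.62, adjusted p = 0.33) did not pass the test, and its CDS reads were too few to be tested. All 10 luminal prostate markers looked at were detected. Their summed level was 6474 to 6603 CPM in the controls and 4523 to 5101 CPM with knockdown. Of 6 neuroendocrine markers, CHGA and INSM1 were at 0 in every library. Of 4 basal markers, KRT5 and TP63 were at 0. The 6 stromal markers summed to 47.4 to 66.0 CPM in the controls and 57.1 to 83.7 CPM with knockdown. In these bulk cultures fewer cells of a type and less RNA per cell cannot be told apart.

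Levels are CPM, the reads of a gene per 1000000 reads of the same table and library, corrected by TMM factors. Values after ± are SDs for levels and SEs for log2 fold changes, all of the latter knockdown over control. A gene is called higher or lower where edgeR's quasi-likelihood test gave an adjusted p under 0.05, and levels without ± are means over 3 control and 6 knockdown libraries. Of 11021 genes tested in the 3′ UTR table, 908 were higher (8.24%) and 1111 lower (10.1%). Of 11876 genes tested in introns, 1033 were higher (8.7%) and 668 lower (5.62%). Of 4900 tested in CDS, 186 were higher (3.8%) and 162 lower (3.31%). Of 13441 tested for 10 kb reads, 1280 were higher (9.52%) and 699 lower (5.2%). The balance of higher and lower calls depended on the scaling in every table. Scaled to all reads of a library, higher calls were 22.4% of all calls in the intron table, where the main scaling gave 60.7%, and 94.3% in the 10 kb table, where it gave 64.7%. The CDS share moved from 53.4% to 34.1%. Under that scaling the median log2 fold change of all genes was 0.62 in the 10 kb table (0.132 with the main scaling), -0.265 in the intron table (0.0162) and -0.12 in the CDS table (-0.00936). Without TMM factors the median was 0.389 in the 10 kb table and 0.128 in the 3′ UTR table (0.0151 with TMM), and higher calls were 84.2% and 64.1% of calls in those tables, against 45.0% of 3′ UTR calls with TMM. Counts of calls also fell when a control library was left out. The 3′ UTR table then had 493 higher genes without CTRL sh BR1, 572 without BR2 and 499 without BR3, and 650 and 699 lower genes without BR1 and BR3. The 10 kb table had 439 lower genes without CTRL sh BR2. Lower intron genes numbered 434, 348 and 393 without CTRL sh BR1, BR2 and BR3, higher CDS genes 81, 112 and 103, and lower CDS genes 93, 96 and 87. Counts over the gene lists below are to be read against these shares over all genes of the same table. They are followed by the count without a library where leaving it out changed the count by more than 1.5 times. For list counts of 1 to 3 genes this is left out, since 65 of 104 such counts changed that much on leaving out some library.

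MAF, ID1, MAP2, GRIN3A, RTN1 and C6orf52 were among the 8 genes with the highest changes in 3′ UTRs. Genes named for the size of their change, here and in the other tables, were picked from those without overlap between control and knockdown libraries. Their lack of overlap is therefore no further support. Of all 3′ UTR genes called, 739 of 908 higher and 921 of 1111 lower ones had no overlap. MAF, a basic leucine zipper transcription factor, had 22.7, 19.3 and 18.2 CPM in the control libraries, 163, 173 and 157 CPM with CPSF1 sh1 and 149.7, 99.4 and 141 CPM with CPSF1 sh2. Every knockdown library exceeded every control by more than the spread within either group (log2 fold change 2.88 ± 0.19, adjusted p = 1.47e-08). ID1, which blocks DNA binding by helix-loop-helix factors, had 4.66, 2.24 and 4.24 CPM in the control libraries, 26.8, 34.0 and 27.5 CPM with CPSF1 sh1 and 29.4, 21.1 and 19.2 CPM with CPSF1 sh2. It was likewise higher in all 6 knockdown libraries (log2 fold change 2.86 ± 0.28, adjusted p = 1.35e-06). MAP2, a microtubule-associated protein of neurons, went from 1.80 to 17.1 CPM (log2 fold change 3.24 ± 0.29), GRIN3A, an NMDA receptor subunit, from 2.45 to 19.7 CPM (3.01 ± 0.31) and RTN1, a reticulon of the endoplasmic reticulum, from 5.01 to 33.1 CPM (2.69 ± 0.24). The uncharacterised open reading frame C6orf52 had the highest fold change among the genes singled out by size, from 2.62 to 30.9 CPM (3.54 ± 0.32).

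Insulin-like growth factor (IGF) signalling showed rises and falls. IGFBP3, a secreted protein that binds IGFs, had 3.84, 2.03 and 4.48 CPM in the control libraries, 32.1, 32.4 and 24.9 CPM with CPSF1 sh1 and 20.1, 17.5 and 21.4 CPM with CPSF1 sh2. The rise (log2 fold change 2.87 ± 0.30, adjusted p = 2.97e-06) left no overlap between controls and knockdown. IGF1R, the IGF-1 receptor, rose from 8.70 to 24.6 CPM (1.49 ± 0.25), while IGFBP2, another binding protein, fell from 564 to 329 CPM (-0.78 ± 0.14). Of 15 genes on the insulin and IGF list, 3 were higher and 2 lower, and 1 and 2 where every library had to exceed 2 CPM. Over all tested genes 8.24% were higher and 10.1% lower.

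**Figure D1:**
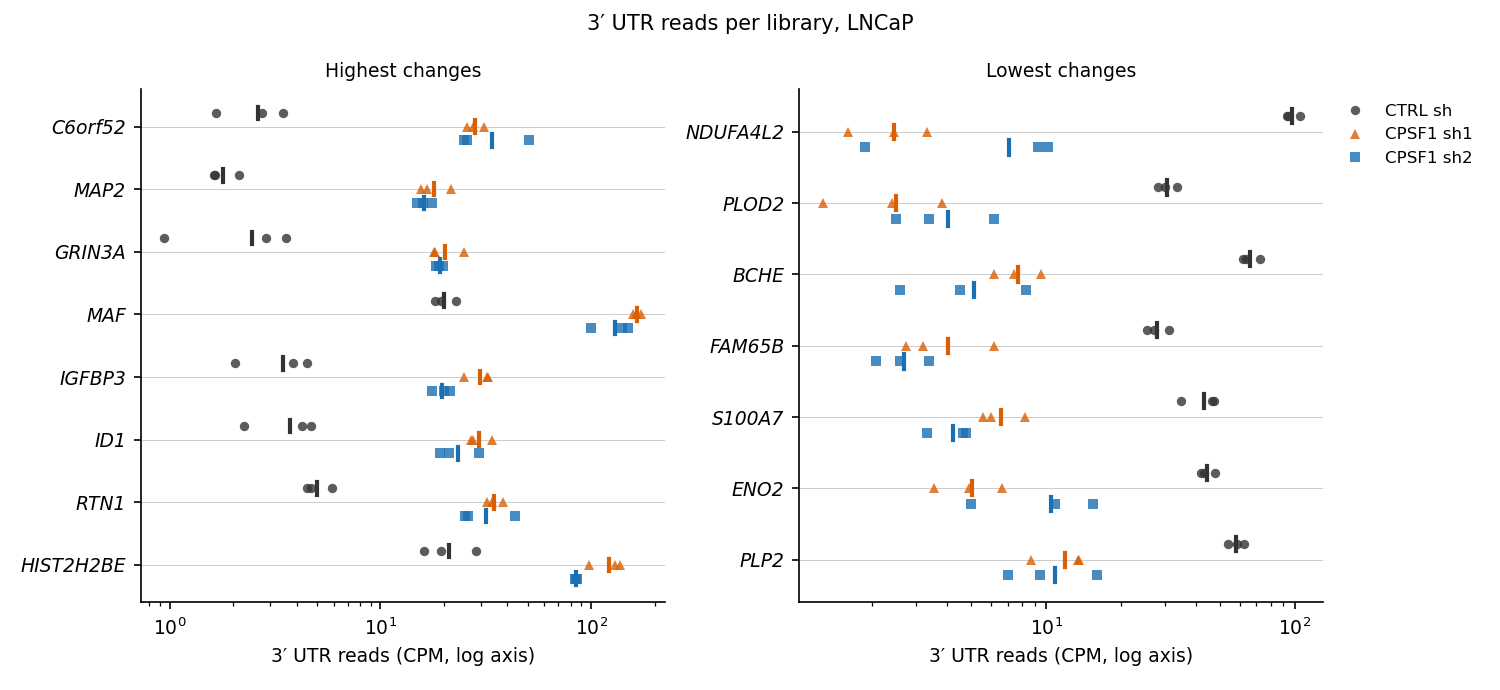
3′ UTR reads in CPM on a log axis for the genes with the 8 highest changes and 7 of those with the lowest, 1 point per library and a bar at the mean of each group of 3 (CTRL sh, CPSF1 sh1, CPSF1 sh2). For all 15 genes the 6 knockdown libraries lie on one side of the 3 control libraries, as the rule that picked them required.

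Among the lowest changes were genes known as targets of the hypoxia-inducible factors. NDUFA4L2, which lowers the activity of mitochondrial complex I, had 92.9, 93.8 and 105 CPM in the control libraries, 1.59, 2.45 and 3.32 CPM with CPSF1 sh1 and 1.86, 9.27 and 10.2 CPM with CPSF1 sh2. The largest knockdown value was far under the smallest control (log2 fold change -4.45 ± 0.32, adjusted p = 5.37e-08). PLOD2, a lysyl hydroxylase of collagen, fell from 30.6 to 3.25 CPM (-3.37 ± 0.28) and ENO2, the neuronal form of the glycolytic enzyme enolase, from 44.3 to 7.72 CPM (-2.62 ± 0.28). BCHE, which encodes butyrylcholinesterase, fell from 66.2 to 6.41 CPM (-3.31 ± 0.21), and its intron and CDS reads fell as well, by 3.05 and 3.16 on the log2 scale. Others were S100A7, a secreted calcium-binding protein (-2.95 ± 0.22), FAM65B, an inhibitor of RhoA (-2.98 ± 0.26), and PLP2, a small membrane protein (-2.39 ± 0.20).

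The hypoxia list covers genes induced by low oxygen, and 12 of its 13 tested members were lower in 3′ UTRs, where 10.1% of all genes were (median log2 fold change -1.01, against 0.015 over all tested genes). Over the alternative settings and with any 1 library left out, 10 to 13 members were lower. P4HA1, a collagen prolyl hydroxylase, had 124, 165 and 130.4 CPM in the control libraries, 48.3, 63.1 and 44.8 CPM with CPSF1 sh1 and 71.4, 40.7 and 52.1 CPM with CPSF1 sh2. No knockdown value reached the controls (log2 fold change -1.38 ± 0.16, adjusted p = 1.36e-05). BNIP3, a mitophagy receptor, fell from 169 to 68.9 CPM (-1.30 ± 0.14), PDK1, a kinase that inhibits pyruvate dehydrogenase, from 38.3 to 14.1 CPM (-1.44 ± 0.22), and ANKRD37 from 9.50 to 3.29 CPM (-1.51 ± 0.32). In the CDS table, where 3.31% of all genes were lower, 5 of 6 tested members were, 3 without CTRL sh BR1, with BNIP3 down from 1177 to 437 CPM (-1.44 ± 0.14). The intron table did not share this fall. There 3 of 12 tested members were higher (ANKRD37, EGLN3 and BNIP3L) and 3 lower (BNIP3, MXI1 and P4HA1). Of all genes 8.7% were higher and 5.62% lower in introns. Scaled to all reads of a library, 1 member was higher and 4 were lower in introns.

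Of 20 glycolysis genes, 9 were lower and 1, HK1, was higher in 3′ UTRs (median -0.47). HK1 lost its call without CTRL sh BR1 or CTRL sh BR3. The study also reported on glycolysis in these knockdown cells, so this list is not independent evidence of its direction. ALDOC, the brain form of aldolase, had 316, 256 and 235 CPM in the control libraries, 63.4, 69.4 and 60.6 CPM with CPSF1 sh1 and 43.7, 91.2 and 62.1 CPM with CPSF1 sh2. The controls and the knockdown libraries did not overlap (log2 fold change -2.06 ± 0.16, adjusted p = 1.64e-07). PFKFB4, which makes an activator of phosphofructokinase, fell from 41.2 to 11.2 CPM (-1.91 ± 0.21), SLC16A3, the lactate exporter MCT4, from 24.4 to 7.92 CPM (-1.68 ± 0.27) and PFKP, the platelet form of phosphofructokinase, from 52.0 to 21.7 CPM (-1.25 ± 0.18). PFKFB4 also fell in introns (-1.29 ± 0.21) and SLC16A3 in CDS (-1.58 ± 0.26).

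Replication-dependent histone genes were often higher. Their transcripts normally end in a stem-loop and carry no poly(A) tail, so PAC-seq sees those copies that do. In 3′ UTRs 7 of 13 were higher and 1 lower (median 1.07). HIST2H2BE, a histone H2B gene, had 16.2, 28.3 and 19.3 CPM in the control libraries, 137, 129.8 and 97.9 CPM with CPSF1 sh1 and 86.1, 85.0 and 83.9 CPM with CPSF1 sh2. The lowest knockdown value was well above the highest control (log2 fold change 2.27 ± 0.22, adjusted p = 1.34e-06). HIST1H1C, a linker histone H1, rose from 78.3 to 234 CPM (1.58 ± 0.13) and HIST1H2BJ from 2.04 to 5.71 CPM (1.50 ± 0.37). In introns 5 of 8 were higher, 3 without CTRL sh BR1 or BR3, and 0 lower by edgeR or DESeq2, against 8.7% higher over all genes. HIST2H4A rose in introns from 16.5 to 41.1 CPM (1.33 ± 0.23). The study took as introns what was left of a gene span after CDS and 3′ UTRs were removed. Where in these stretches the histone reads lie was not tested. Histone genes are near-identical copies, so reads may have been split between them.

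Of 20 p53 targets, 6 were higher and 2 lower in 3′ UTRs. CDKN1A, the cyclin-dependent kinase inhibitor p21, had 52.0, 46.0 and 62.5 CPM in the control libraries, 203, 192 and 233 CPM with CPSF1 sh1 and 176, 225 and 254 CPM with CPSF1 sh2. The ranges of the 2 shRNAs overlapped and both lay above the controls (log2 fold change 2.00 ± 0.16, adjusted p = 1.57e-07). MDM2, the ubiquitin ligase that degrades p53, rose from 120.2 to 246 CPM (1.03 ± 0.14) and TP53I3, an oxidoreductase, from 12.7 to 26.0 CPM (1.05 ± 0.21). GDF15, a secreted stress cytokine, went the other way, from 1801 to 888 CPM (-1.02 ± 0.14). Of 21 mitosis genes only AURKB, the kinase of the chromosomal passenger complex, was called. It was lower (log2 fold change -0.74 ± 0.20, adjusted p = 0.0155) and lost its call on leaving out a library (adjusted p = 0.0552 without CTRL sh BR1 and adjusted p = 0.107 without CTRL sh BR3).

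Androgen-regulated genes rose and fell. KLK3, which encodes prostate-specific antigen, had 1559.8, 1516 and 1664 CPM in the control libraries, 372, 339 and 409 CPM with CPSF1 sh1 and 290.1, 383 and 388 CPM with CPSF1 sh2. All knockdown libraries were at less than any control (log2 fold change -2.12 ± 0.12, adjusted p = 2.46e-09). KLK3 introns fell too (-2.18 ± 0.18). The elongation factor ELL2 rose from 14.0 to 44.1 CPM (1.66 ± 0.18), the ubiquitin ligase HERC3 from 20.2 to 55.6 CPM (1.47 ± 0.28) and the co-chaperone FKBP5 from 52.3 to 108 CPM (1.05 ± 0.15). In all, 5 of 21 androgen-regulated genes (23.8%) were higher and 3 (14.3%) lower in 3′ UTRs, against 8.24% and 10.1% over all genes. The median was -0.03 and turned to 0.09 without TMM factors and to 0.01 scaled to all reads. HOXB13, a homeobox factor of the prostate, fell from 302 to 216 CPM (-0.48 ± 0.11). UGT2B enzymes attach glucuronic acid to androgens and inactivate them. UGT2B15 had 471, 486 and 461 CPM in the control libraries, 132, 134 and 138 CPM with CPSF1 sh1 and 86.8, 96.9 and 92.1 CPM with CPSF1 sh2, with no overlap (log2 fold change -2.06 ± 0.15, adjusted p = 5.37e-08). UGT2B15 and UGT2B17 were lower in 3′ UTRs, introns and CDS, by 2.40 and 2.48 in introns and by 2.93 and 3.12 in CDS on the log2 scale. These 2 genes are close paralogs, and reads could have been assigned to either.

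Lipid genes rose and fell. Of 13 fatty acid synthesis genes 5 were lower and 2 higher. The desaturase FADS1 fell from 224 to 108 CPM (-1.06 ± 0.13) and the elongase ELOVL6 from 124 to 65.5 CPM (-0.93 ± 0.13), while the acyl-CoA synthetase ACSL3 rose from 118 to 255 CPM (1.12 ± 0.12) and the elongase ELOVL7 from 8.68 to 22.9 CPM (1.43 ± 0.25). The median was -0.09 and turned to 0.01 without TMM factors. Of 19 cholesterol genes 5 were higher and 1 lower. LSS, lanosterol synthase, rose from 12.9 to 22.3 CPM (0.78 ± 0.18), and SREBF2, the transcription factor that drives the pathway, fell from 259 to 176 CPM (-0.56 ± 0.13). The count of higher cholesterol genes was 2 without CPSF1 sh1 BR1, 1 without CTRL sh BR1, 3 without BR2 and 1 without BR3. It was 9 with CPSF1 sh1 alone and 1 with CPSF1 sh2 alone, where 1243 and 485 of all genes were higher. NPC1, which carries cholesterol out of lysosomes, had 64.1, 64.9 and 75.4 CPM in the control libraries, 246, 215 and 251 CPM with CPSF1 sh1 and 169, 189 and 192 CPM with CPSF1 sh2, and rose (log2 fold change 1.63 ± 0.15, adjusted p = 1.24e-06).

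Several housekeeping groups changed to a small degree. Of 77 ribosomal protein genes 17 were lower and 0 higher by edgeR, with 33 at an unadjusted p under 0.05, and 21 lower and 0 higher by DESeq2 (median -0.24). The 17 became 7 without CTRL sh BR1 and 29 without CPSF1 sh2 BR2. RPS27 fell from 5879 to 3093 CPM (-0.93 ± 0.16), RPSA from 2913 to 1849.9 CPM (-0.65 ± 0.12), RPL13 from 9517 to 6148 CPM (-0.63 ± 0.14) and RPL34 from 7836 to 5275 CPM (-0.57 ± 0.12). Ribosomal protein genes have many processed copies in the genome, so their read counts are uncertain. Of 30 proteasome genes 7 were higher (8 by DESeq2, and 11 at an unadjusted p under 0.05) and 0 lower by either tool, with 4 higher without CTRL sh BR1 and 3 without BR2. The core particle subunit PSMA7 rose from 95.3 to 181 CPM (0.93 ± 0.16) and the regulatory subunits PSMD6 and PSMD12 by 0.72 ± 0.16 and 0.59 ± 0.13. Splicing regulators had 5 of 28 higher (8 by DESeq2, and 12 at an unadjusted p under 0.05) and 0 lower by either tool, with 2 higher without CTRL sh BR1, 3 without BR3 and 9 without CPSF1 sh2 BR2. SRSF2, a serine/arginine-rich factor, rose from 100.5 to 169 CPM (0.75 ± 0.17). Among cytoskeleton and adhesion genes 7 of 27 were higher, 4 without CTRL sh BR2 and 2 without BR3, including tubulin TUBA1C (0.72 ± 0.16). The 3 that were lower, 1 without CTRL sh BR2 or BR3, were the tight junction claudins CLDN3 (-0.71 ± 0.13), CLDN4 (-0.53) and CLDN7 (-0.46). CLDN4 lost its call without CTRL sh BR2 or CTRL sh BR3, and CLDN7 lost it with any of 7 libraries left out, kept only without CPSF1 sh1 BR3 or CPSF1 sh2 BR2.

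Stress response genes included falls in PHGDH, the first enzyme of serine synthesis, from 755 to 402 CPM (-0.91 ± 0.17), and in ATF4, the transcription factor of the integrated stress response, from 754 to 464 CPM (-0.70 ± 0.14). Of 22 genes of that list 4 (18.2%) were lower, 2 without CTRL sh BR1 or BR3, and 2 (9.09%) higher, against 10.1% and 8.24% over all genes. Without TMM factors 3 were higher and 3 lower. GSR, glutathione reductase, rose from 61.3 to 120.1 CPM (0.97 ± 0.15), whereas NQO1, a quinone reductase, fell from 138 to 70.1 CPM (-0.98 ± 0.16). KLF6, a zinc finger factor, rose from 16.0 to 32.3 CPM (1.02 ± 0.18) and JUN fell from 131 to 81.9 CPM (-0.67 ± 0.14). Of 76 oxidative phosphorylation genes 8 (10.5%) were higher and 6 (7.89%) lower, near the 8.24% and 10.1% over all genes. With 1 library left out these counts ranged from 0 (without CTRL sh BR1) to 14 (without CPSF1 sh2 BR2) and from 2 (without CTRL sh BR1) to 6. The higher count was 2 without CTRL sh BR2 or BR3, 3 without CPSF1 sh1 BR1 or BR2, 4 without CPSF1 sh1 BR3 and 5 without CPSF1 sh2 BR3. Cleavage and polyadenylation factors other than CPSF1 had 3 of 22 (13.6%) higher and 1 (4.55%) lower, and the 3 became 1 without CTRL sh BR1 and 0 without BR2. Of 7 basal and stromal markers tested, 2 were higher and 1 lower. ACTA2, smooth muscle actin, rose from 5.81 to 27.5 CPM (2.25 ± 0.29). LAMB3, a laminin chain, rose from 2.69 to 11.6 CPM (2.06 ± 0.33). COL1A1, a collagen chain, fell from 15.3 to 9.43 CPM (-0.75 ± 0.25), a call kept only without CTRL sh BR1 or CPSF1 sh2 BR2 when a library was left out. Of 3 neuroendocrine markers tested, ENO2 and DDC, the decarboxylase that makes dopamine and serotonin, were lower. DDC changed by -0.68 ± 0.20 on the log2 scale and lost its call without CTRL sh BR1 or CTRL sh BR2. Fewer members of the other lists were called. Of 24 lysosome and autophagy genes 4 (16.7%) were higher, 2 without CTRL sh BR1 and 1 without BR3, against 8.24% over all genes. Of 11 polyamine genes 3 (27.3%) were higher, of 22 DNA replication genes 3 (13.6%) and of 14 interferon response genes 2 (14.3%). At most 1 was lower in each of these lists.

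**Figure D2:**
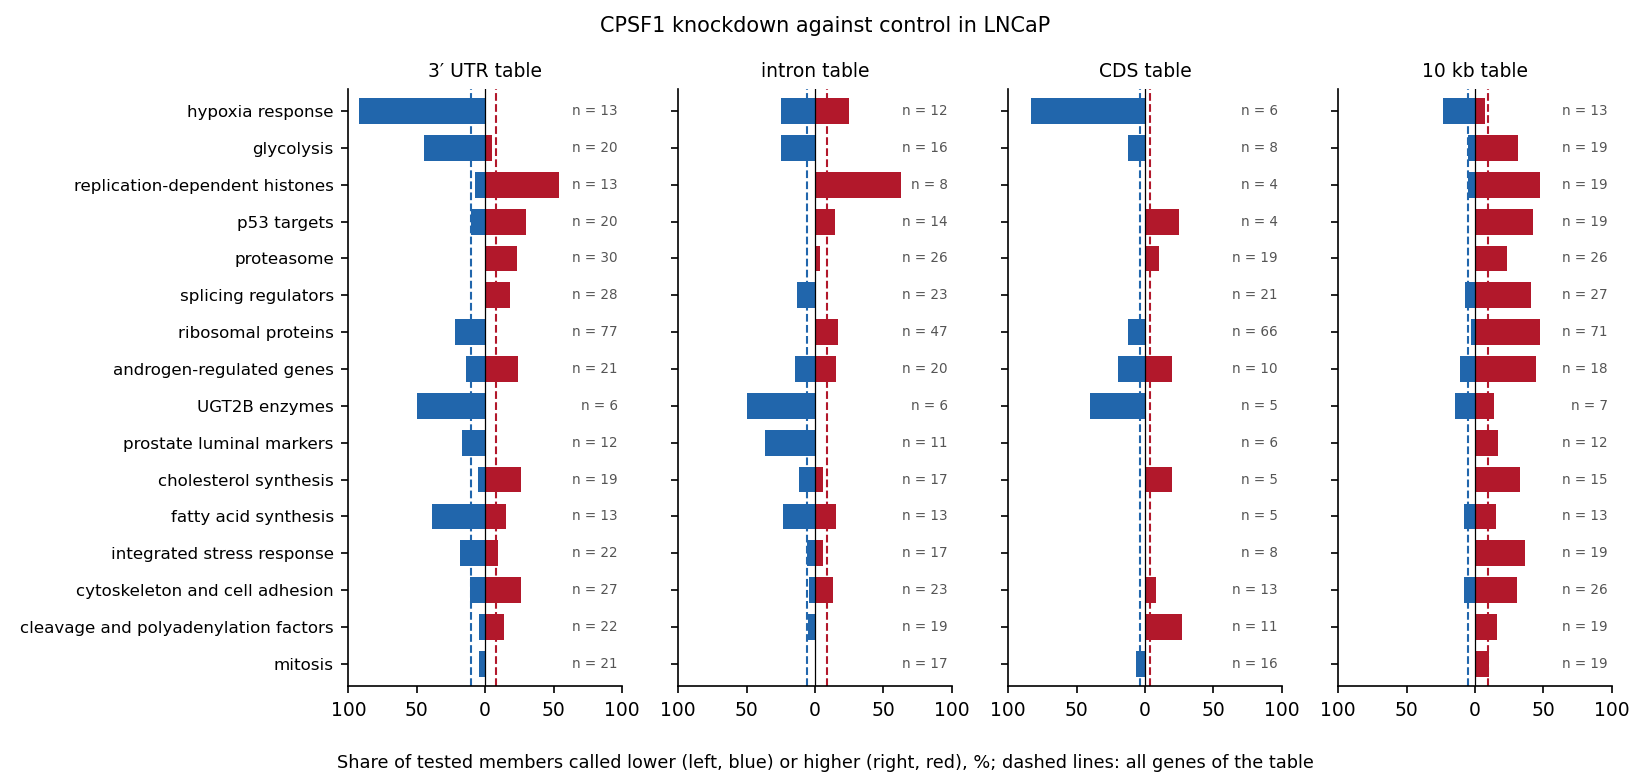
Share of the tested members of 16 gene lists called lower (blue, to the left) or higher (red, to the right) in each table, in percent, with the number tested (n) and dashed lines at the share over all genes of the table. Hypoxia genes are mostly lower in 3′ UTRs and CDS, and ribosomal protein, histone and p53 target genes are often higher in the 10 kb table.

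Of the 6 highest rises in introns, 4 were in genes that start within 2 kb of the end of another gene on the same strand. C11orf83, a mitochondrial assembly factor gene, had 10.2, 3.97 and 8.04 CPM in the control libraries, 272, 299.6 and 297 CPM with CPSF1 sh1 and 382, 435 and 365 CPM with CPSF1 sh2. The knockdown libraries were all far above the controls (log2 fold change 5.54 ± 0.23, adjusted p = 7.13e-17). The gene starts 1777 bases after the end of METTL12, whose 10 kb reads rose by 4.49 on the log2 scale. MSH4, a meiotic mismatch repair gene, had 12.2, 10.7 and 10.3 CPM in the control libraries, 214, 234 and 199 CPM with CPSF1 sh1 and 307, 255 and 338 CPM with CPSF1 sh2 and rose likewise (log2 fold change 4.54 ± 0.21, adjusted p = 5.04e-16). It starts 1503 bases after RABGGTB, whose 10 kb reads rose by 3.60. ITGA10, an integrin chain, rose from 1.19 to 31.9 CPM (4.70 ± 0.37). SLC45A2, a transporter of pigment cells, rose from 3.28 to 93.7 CPM (4.84 ± 0.24) and starts 1148 bases after AMACR. MOBP, a myelin protein gene, rose from 0.931 to 22.6 CPM (4.58 ± 0.48) and C3orf22 from 0.546 to 15.9 CPM (4.63 ± 0.56), and the nearest protein-coding genes upstream on their strand ended 54356 and 12514 bases away.

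Position was then counted over the whole table. Of the 1033 genes with higher intron reads, 305 (29.5%) had a protein-coding gene of the same strand ending within 10 kb upstream, against 92 of 668 (13.8%) with lower intron reads and 2316 of 11876 (19.5%) of all tested genes. Among the 305, the upstream gene's 10 kb reads were called higher in 64 (21.0%), against 106 of 2316 (4.58%) over the table and 0 of the 92. In all 64 pairs the intron overlapped the upstream gene's 10 kb region, so a read in the overlap counts in both tables, and how many of the gained reads lie there was not measured. The median 3′ UTR level was 20.6 CPM for the 529 genes with higher intron reads that had a tested 3′ UTR.

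BCHE, with falls in its 3′ UTR and CDS, also led the falls in introns. Its intron reads were 128, 143 and 139 CPM in the control libraries, 21.5, 22.8 and 11.7 CPM with CPSF1 sh1 and 17.0, 12.9 and 15.0 CPM with CPSF1 sh2 (log2 fold change -3.05 ± 0.16, adjusted p = 1.72e-14). STC1, a secreted glycoprotein, fell from 89.2 to 12.6 CPM (-2.92 ± 0.28), ADARB2, an RNA-binding relative of the adenosine deaminases, from 159.8 to 23.2 CPM (-2.78 ± 0.16) and FOXN4, a forkhead factor, from 31.8 to 6.04 CPM (-2.38 ± 0.32). FOLH1, which encodes prostate-specific membrane antigen, fell in introns from 1492 to 983 CPM (-0.60 ± 0.12). Its 3′ UTR level of 571 CPM in controls and 613 CPM with knockdown did not pass the test. The desaturase FADS2 fell from 133 to 47.9 CPM (-1.47 ± 0.13), SREBF2 from 158 to 93.5 CPM (-0.76 ± 0.13) and HNRNPH1, a splicing regulator, from 99.6 to 58.6 CPM (-0.79 ± 0.14).

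Intron reads also rose in single members of lists that had falls, and in lists with more rises. Of 14 insulin and IGF genes 1 was higher and 3 lower in introns, of 17 cholesterol genes 1 and 2, of 15 unfolded protein response genes 1 and 2, and of 16 glycolysis genes 4 were lower. HSP90B1, a chaperone of the endoplasmic reticulum, had 46.8, 33.8 and 44.7 CPM in the control libraries, 110.1, 108 and 90.6 CPM with CPSF1 sh1 and 140.1, 66.4 and 73.0 CPM with CPSF1 sh2 in introns and rose (log2 fold change 1.24 ± 0.19, adjusted p = 2.01e-05), while its 3′ UTR gave -0.06 on the log2 scale (adjusted p = 0.857). NPC1 intron reads rose from 115 to 752 CPM (2.70 ± 0.14). IGF1R introns rose from 65.1 to 143 CPM (1.14 ± 0.15), DHCR7, a cholesterol enzyme, from 10.7 to 26.6 CPM (1.30 ± 0.26) and WWTR1, the coactivator TAZ, from 16.0 to 42.9 CPM (1.41 ± 0.21). TGFB2, a transforming growth factor, rose from 2.38 to 9.66 CPM (2.01 ± 0.48). Ribosomal protein introns were higher in 8 of 47 genes and lower in 0 by edgeR (11 at an unadjusted p under 0.05) and in 8 and 1 by DESeq2, and scaled to all reads in 7 and 5. RPL37A rose from 30.6 to 234 CPM (2.94 ± 0.19). Among the most abundant called genes were ADAMTS6 (1868 to 6190.1 CPM, 1.73 ± 0.20), ZNF98 (2779.8 to 4398 CPM, 0.66 ± 0.16) and LINGO1 (3768 to 8208 CPM, log2 fold change 1.12 ± 0.29, adjusted p = 0.00846, with adjusted p = 0.072 without CTRL sh BR1 and adjusted p = 0.0566 without CTRL sh BR2). MTRNR2L12, a nuclear copy of mitochondrial sequence, held 18.6% of intron reads in controls and 20.2% with knockdown and was not called.

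CDS reads report tails added within coding exons, and 7.1% of the genes tested were called. TTN, which encodes the muscle protein titin, had 2.54, 8.80 and 8.43 CPM in the control libraries, 177, 129.9 and 146 CPM with CPSF1 sh1 and 151, 116 and 175 CPM with CPSF1 sh2. It rose in all 6 knockdown libraries (log2 fold change 4.49 ± 0.29, adjusted p = 4.04e-11), as did the neighbouring CCDC141, whose annotated span overlaps it on the same strand, from 1.16 to 27.1 CPM (4.44 ± 0.59). WDR96 rose from 3.69 to 48.3 CPM (3.67 ± 0.41). CCDC175 had 1 read over the 3 control libraries and 94 over the 6 knockdown libraries, a ratio of 53.5 after scaling for depth (exact 95% counting interval 9.37 to 2135). It starts 18846 bases after RTN1, whose 3′ UTR reads rose by 2.69. The 10 kb reads of RTN1 did not pass the test (log2 fold change 2.45, adjusted p = 0.231). Within the polyadenylation machinery, CSTF3, a subunit of the cleavage stimulation factor, had 27.1, 20.2 and 24.5 CPM in the control libraries, 82.2, 89.0 and 70.1 CPM with CPSF1 sh1 and 87.1, 61.3 and 66.6 CPM with CPSF1 sh2 and rose (log2 fold change 1.66 ± 0.24, adjusted p = 5.25e-05). PCF11, a termination factor, rose from 359.6 to 641 CPM (0.84 ± 0.15). ELL2 rose in CDS from 109.8 to 301 CPM (1.45 ± 0.20) and IDI1, an isomerase of cholesterol synthesis, from 10.6 to 36.6 CPM (1.75 ± 0.39). TPM1, a tropomyosin, rose from 1268 to 2057 CPM (0.70 ± 0.13).

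CDS falls were led by UGT2B17 (138 to 15.2 CPM, -3.12 ± 0.32), BCHE (30.8 to 3.60 CPM, -3.16 ± 0.49) and UGT2B15 (44.6 to 5.30 CPM, -2.93 ± 0.40), followed by WDR66 (30.6 to 7.95 CPM, -1.99 ± 0.43). DARS, aspartyl-tRNA synthetase, fell from 31.4 to 8.80 CPM (-1.92 ± 0.43) and RPL24 from 805 to 326 CPM (-1.29 ± 0.25). Abundant genes that fell were MYO6, an unconventional myosin (15512 to 8665 CPM, -0.84 ± 0.10), and NUCKS1, a chromatin protein (14914 to 9908 CPM, -0.59 ± 0.10). Of 66 ribosomal protein genes 8 were lower and 0 higher by edgeR (22 at an unadjusted p under 0.05) and by DESeq2, with 5 lower without CTRL sh BR1 and 4 without BR3.

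Sequence beyond the gene end gained reads at many genes. Reads in the 10 kb table made up 4.88% ± 0.0930 (SD, n = 3) of the reads in all 4 tables in controls and 6.28% ± 0.666 (n = 6) with knockdown. The exact permutation test, two-sided over 84 arrangements with 0.0119 as the smallest possible p, gave p = 0.0238, or 0.0952 adjusted over the shares of the 4 tables, which misses 0.05. The adjusted p was 0.635 for the 3′ UTR share, 0.238 for introns and 0.726 for CDS in the same exact permutation test. The highest fitted changes at a mean of 10 CPM or more were in 6 genes whose controls held no 10 kb read. A fitted fold then depends on the prior count added to 0 and sets no order against genes with control reads. What is printed for them is the least fold that the counts allow, set against a floor of 3 reads over the 3 control libraries, and intervals and floors cover counting error only. ALDH8A1, an aldehyde dehydrogenase, had 29, 20 and 36 reads with CPSF1 sh1 and 40, 16 and 32 with CPSF1 sh2 (at least 21.5-fold higher). IGFBP3 had 22, 20 and 21 and 31, 16 and 10 reads (at least 16.0-fold). Every one of these knockdown libraries was above the controls, as the rule that picked these genes required. The bounds were at least 14.7-fold for PRAMEF2, a gene of a family of near-identical copies that may share reads, at least 11.7-fold for LRGUK, at least 10.4-fold for DNAJC13, an endosomal co-chaperone, and at least 9.52-fold for NDNL2, a subunit of the SMC5/6 complex. The region of NDNL2 lies within FAM189A1, a gene of the same strand, and reads of the 2 cannot be told apart. Of the 1280 genes called higher, 113 had no control read.

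The last 30 bases of the annotated gene are shown for these genes and for 3 of the genes whose 10 kb reads fell most, because this is where transcripts are annotated to end, and counting as downstream starts 300 bases later. They are hg19 reference sequence, written 5′ to 3′ on the strand of the gene, and capitals mark each AATAAA or ATTAAA, the usual poly(A) signals in DNA letters.
ALDH8A1, chr6:135238528-135238557, minus strand: ataaatgttaagcaattttagtaaccagta
IGFBP3, chr7:45951949-45951978, minus strand: gtaAATAAAgtttttaccATTAAAaaaata
PRAMEF2, chr1:12921735-12921764, plus strand: atttatttcattttttaataattccaaaat
LRGUK, chr7:133949314-133949343, plus strand: acgaaagAATAAAgagcaacagttgattct
DNAJC13, chr3:132257847-132257876, plus strand: taaagggaattgactgctttgttaatgaga
NDNL2, chr15:29560353-29560382, minus strand: cAATAAAtactgtatttttgaagcacttaa
FAM132A, chr1:1177826-1177855, minus strand: acAATAAAgagccctccaccctccccactg
LDLRAD1, chr1:54474412-54474441, minus strand: cttctaacaaagatgatgtggtggaacccc
SLC4A9, chr5:139754699-139754728, plus strand: tccagAATAAAtattcatctgtttgaaata

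IGFBP3, LRGUK and NDNL2 carry a signal within these 30 bases, and ALDH8A1 and DNAJC13 hold one within the last 50, whereas PRAMEF2 has none there. Of the 3 that fell, LDLRAD1 has none, and its downstream region overlaps annotation of LDLRAD1 itself on the same strand. Over all genes with an uncut 10 kb region, 70.2% of 15663 had AATAAA or ATTAAA on the gene strand in the last 50 bases. The share was 71.8% of 1130 genes with higher 10 kb reads (exact 95% binomial interval 69.0 to 74.4), 57.9% of 394 with lower reads (52.8 to 62.8) and 70.7% of 10550 tested. For 3′ UTR calls it was 78.3% of 729 higher, 75.4% of 821 lower and 76.1% of 8403 tested. A match is a description of these letters in this window only.

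Downstream reads rose at several androgen-regulated genes. KLK2, a kallikrein, had 0, 33.4 and 5.66 CPM in the control libraries, 121, 144 and 108 CPM with CPSF1 sh1 and 174, 110.0 and 227 CPM with CPSF1 sh2. One control held no read and the highest control was below the lowest knockdown value (log2 fold change 3.40 ± 0.39, adjusted p = 5.39e-13), while its 3′ UTR did not pass the test (-0.22, adjusted p = 0.244). PMEPA1, another gene of the list, had 3 reads over the 3 control libraries and 150 over the 6 knockdown libraries, a ratio of 18.6 after scaling for depth (exact 95% counting interval 6.26 to 91.4). In all 8 of 18 androgen-regulated genes were higher, 5 without CTRL sh BR1, and 2 lower. With every library above 2 CPM, 5 were higher and 2 lower. GRHL2, an epithelial transcription factor, rose from 127 to 387 CPM (1.61 ± 0.23) and FN1, fibronectin, from 15.2 to 98.5 CPM (2.69 ± 0.41).

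Some glycolysis genes gained downstream reads. LDHA, lactate dehydrogenase A, had 24.2, 5.14 and 5.66 CPM in the control libraries, 109, 97.7 and 91.8 CPM with CPSF1 sh1 and 169.9, 223 and 180.0 CPM with CPSF1 sh2. These values did not overlap (log2 fold change 3.65 ± 0.41, adjusted p = 6.29e-14) in the 10 kb table. Its 3′ UTR reads were lower by 0.44 on the log2 scale (adjusted p = 0.0262), a call lost without CPSF1 sh1 BR1, CPSF1 sh1 BR3, CTRL sh BR1 or CTRL sh BR2. LDHB rose from 4.89 to 43.7 CPM (3.18 ± 0.64). Of 19 glycolysis genes 6 were higher and 1 lower. Each 10 kb region of LDHA and LDHB contains a further protein-coding gene of the same strand. Hypoxia genes had 1 of 13 higher and 3 lower, and 2 and 1 scaled to all reads. ENO2, whose region spans the neighbouring ATN1, fell from 248 to 76.2 CPM (-1.67 ± 0.24).

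Among the lists, ribosomal protein genes, the longest list, had the most members called higher downstream. Of 71 ribosomal protein genes 34 (47.9%) were higher and 2 lower, against 9.52% and 5.2% of all genes (median 1.18, against 0.132). By share, histone genes (47.4%), androgen-regulated genes (44.4%) and p53 targets (42.1%) were close. In the highest quintile of 3′ UTR reads 21.4% of genes were higher, and the part of read depth in the ribosomal share was not tested. RPL37A had 0, 0 and 11.3 CPM in the control libraries, 114, 74.7 and 97.7 CPM with CPSF1 sh1 and 161, 140.1 and 145 CPM with CPSF1 sh2. Only 1 control held reads, and all knockdown libraries exceeded it (log2 fold change 4.93 ± 0.52, adjusted p = 1.15e-15). RPL12 had 1 read over the 3 control libraries and 119 over the 6 knockdown libraries, a ratio of 44.4 after scaling for depth (exact 95% counting interval 7.81 to 1767). RPL13, lower in its 3′ UTR, was higher downstream (2.21 ± 0.33), as were RPS27 (1.96 ± 0.36) and RPSA (2.13 ± 0.30). Of 27 splicing regulators 11 were higher and 2 lower. HNRNPDL, an RNA-binding protein, had 21.2, 5.14 and 11.3 CPM in the control libraries, 165, 213 and 141 CPM with CPSF1 sh1 and 318, 230.1 and 293 CPM with CPSF1 sh2, with no overlap (log2 fold change 4.19 ± 0.37, adjusted p = 2.65e-20). SRSF7 had 3 reads over the 3 control libraries and 138 over the 6 knockdown libraries, a ratio of 17.2 after scaling for depth (exact 95% counting interval 5.75 to 84.2). Of 19 histone genes 9 were higher and 1 lower, and HIST2H2BF had 3.03, 2.57 and 5.66 CPM in the control libraries, 111, 209.7 and 124 CPM with CPSF1 sh1 and 128, 90.0 and 118 CPM with CPSF1 sh2. Every knockdown library was far above the controls (log2 fold change 5.02 ± 0.50, adjusted p = 5.18e-17). HIST1H2BK, whose region contains another histone gene of the same strand, rose from 6.25 to 78.7 CPM (3.56 ± 0.51).

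The p53 targets had 8 of 19 higher downstream by edgeR and by DESeq2 (13 at an unadjusted p under 0.05) and 0 lower. BTG2, an antiproliferative factor, had 51.5, 7.71 and 25.5 CPM in the control libraries, 191, 155 and 151 CPM with CPSF1 sh1 and 188, 257 and 192 CPM with CPSF1 sh2, and rose (log2 fold change 2.76 ± 0.33, adjusted p = 1.2e-12) while its 3′ UTR gave 0.03 (adjusted p = 0.931). The stress and translation genes SARS, seryl-tRNA synthetase, and ATF4 moved in the same direction. SARS had 9.08, 12.9 and 22.6 CPM in the control libraries, 201, 224 and 159.9 CPM with CPSF1 sh1 and 367, 250.1 and 268 CPM with CPSF1 sh2. The groups did not overlap (log2 fold change 4.01 ± 0.35, adjusted p = 1.1e-20). ATF4 had 1 read over the 3 control libraries and 58 over the 6 knockdown libraries, a ratio of 21.6 after scaling for depth (exact 95% counting interval 3.73 to 869), while its 3′ UTR reads fell. Of 19 integrated stress response genes 7 were higher and 0 lower by both tools (9 at an unadjusted p under 0.05), and of 17 aminoacyl-tRNA synthetases 4 were higher, NARS among them (28.3 to 107 CPM, 1.92 ± 0.36). With every library above 2 CPM, 3 integrated stress response genes were higher, and 4 aminoacyl-tRNA synthetases were higher and 2 lower. HSP90B1 rose from 23.2 to 206 CPM (3.18 ± 0.33), TXNRD1, thioredoxin reductase, from 12.6 to 123 CPM (3.21 ± 0.40) and SQSTM1, the autophagy receptor p62, from 71.0 to 389.9 CPM (2.45 ± 0.25). NPC1 had 2 reads over the 3 control libraries and 199 over the 6 knockdown libraries, a ratio of 37.1 after scaling for depth (exact 95% counting interval 10.1 to 308).

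Other lists followed with fewer calls. Cholesterol genes had 5 of 15 higher, 4 by DESeq2, and 0 lower by either tool (6 at an unadjusted p under 0.05). With every library above 2 CPM, 2 were higher. SQLE, squalene epoxidase, had no control read and 34 knockdown reads (at least 3.95-fold). ACACA, acetyl-CoA carboxylase, rose from 116 to 399.8 CPM (1.77 ± 0.24). Among proteasome genes 6 of 26 were higher, 3 without CTRL sh BR2 or BR3, and PSMC2 had 1 read over the 3 control libraries and 231 over the 6 knockdown libraries, a ratio of 86.1 after scaling for depth (exact 95% counting interval 15.3 to 3417). The region of PSMC2 overlaps annotation of PSMC2 itself on the same strand, and whether the reads lie there was not tested. Of 67 oxidative phosphorylation genes 10 (14.9%) were higher and 2 (2.99%) lower, against 9.52% and 5.2% of all genes. UQCRC2 had 2 reads over the 3 control libraries and 125 over the 6 knockdown libraries, a ratio of 23.3 after scaling for depth (exact 95% counting interval 6.32 to 195). TUBB, a beta-tubulin, had no control read and 32 knockdown reads (at least 4.18-fold), and cytoskeleton genes had 8 of 26 higher, 5 without CTRL sh BR1 and 4 without BR3, and 2 lower. In the machinery itself, CSTF3 rose from 3.90 to 63.0 CPM (3.99 ± 0.60), CSTF2T from 5.40 to 48.1 CPM (3.03 ± 0.60) and INTS6, an Integrator subunit, from 79.0 to 161 CPM (1.03 ± 0.27). SRM, spermidine synthase, whose region contains MASP2 on the same strand, rose by 1.86 ± 0.37 on the log2 scale. Of the targets of YAP and TGF-beta, edgeR and DESeq2 called 0 of 11 here and 0 of 6 in 3′ UTRs, with 4 and 1 at an unadjusted p under 0.05 in edgeR.

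**Figure D3:**
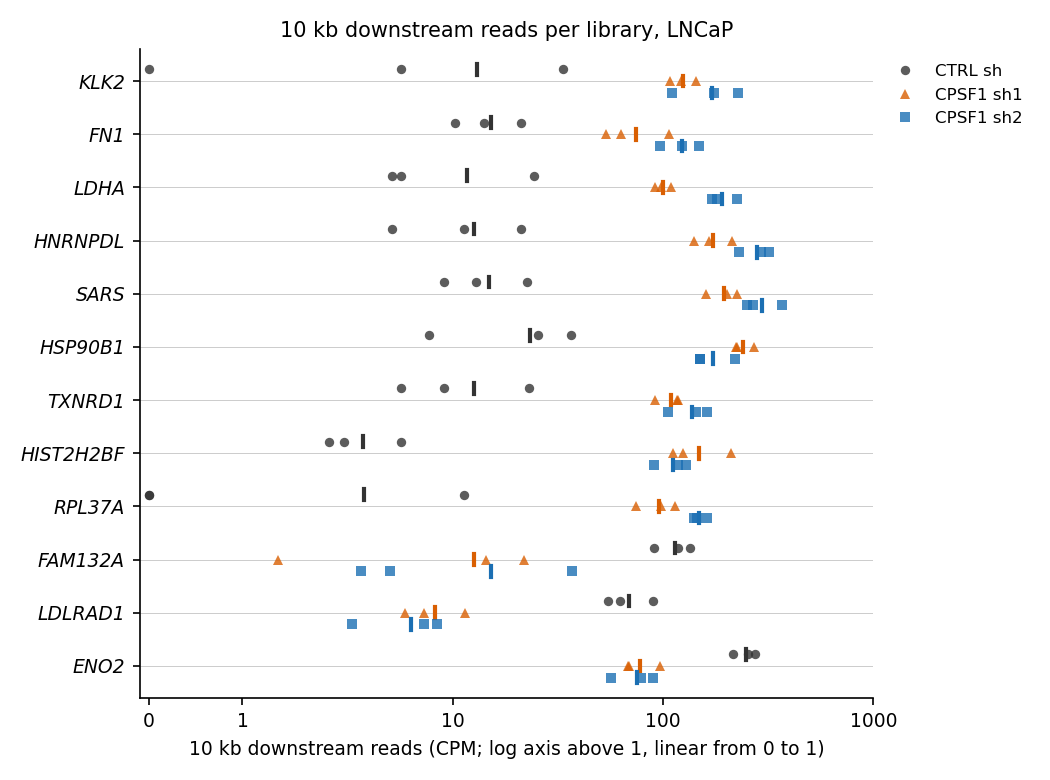
10 kb downstream reads in CPM for 12 genes, 1 point per library and a bar at the mean of each group of 3; the axis is logarithmic above 1 CPM and linear from 0 to 1. The upper 9 genes are higher in all 6 knockdown libraries than in any control, and the lower 3 are lower.

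The share of genes called higher downstream was larger in genes with more 3′ UTR reads. The 9375 genes tested in both tables were put in quintiles by 3′ UTR reads. The share called higher was 5.81%, 8.64%, 10.3%, 15.0% and 21.4% from the lowest quintile to the highest, while the share called lower was 6.03%, 5.07%, 4.8%, 5.49% and 4.27%. Median log2 fold changes, with genes lacking control reads set at their bounds, went from 0.04 to 0.47. In introns the share called higher was 8.42%, 5.84%, 5.44%, 5.04% and 5.56%, and in CDS 2.74%, 2.52%, 2.63%, 3.51% and 4.83%. Genes with more 3′ UTR reads also hold more downstream reads, and the part of that depth in these shares was not tested.

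**Figure D4:**
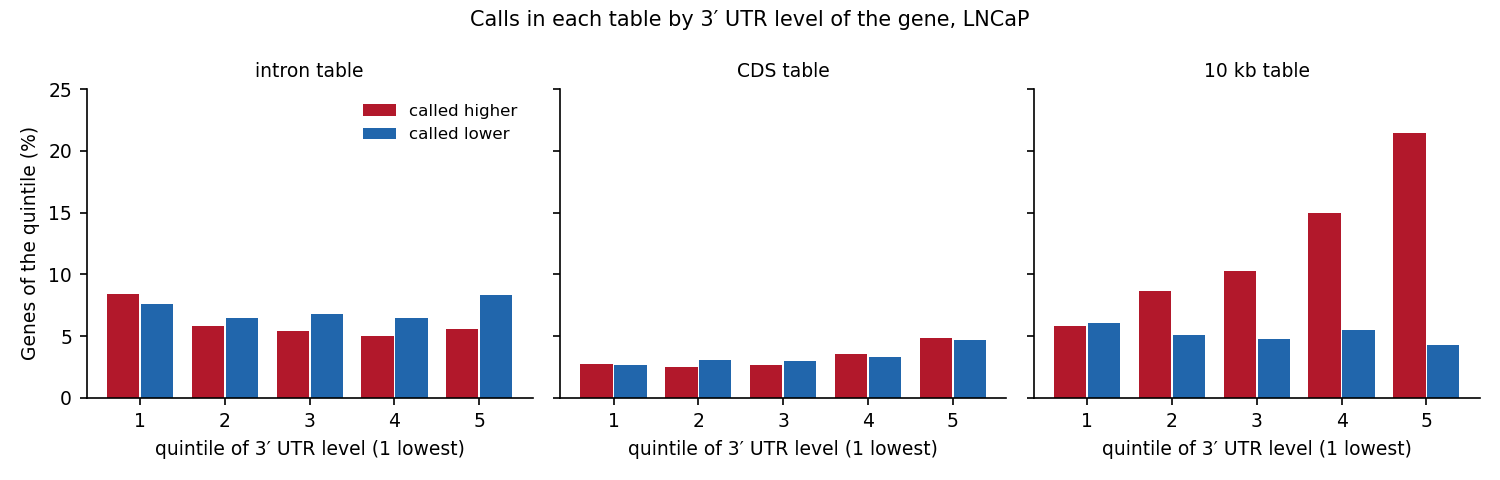
Percent of genes called higher (red) or lower (blue) in the intron, CDS and 10 kb tables, by quintile of the gene's mean 3′ UTR level from lowest (1) to highest (5). In the 10 kb table higher calls go from 5.81% to 21.4% and lower calls stay between 4.27% and 6.03%.

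Genes called lower downstream had a median 3′ UTR level of 24.6 CPM, near the 26.9 CPM of all genes tested there, while genes called higher had 50.3 CPM. Their median 10 kb level was 66.8 CPM, against 38.2 CPM for genes called higher and 12.3 CPM for all tested. FAM132A, a secreted adipokine gene, had 118, 134 and 90.5 CPM in the control libraries, 21.8, 14.4 and 1.48 CPM with CPSF1 sh1 and 3.65, 36.7 and 5.05 CPM with CPSF1 sh2, with all 6 knockdown libraries below the controls (log2 fold change -3.26 ± 0.40, adjusted p = 8.37e-12). LDLRAD1 fell from 68.9 to 7.29 CPM (-3.19 ± 0.48), SLC4A9, an anion exchanger, from 72.6 to 9.62 CPM (-3.03 ± 0.47), C2orf72 from 41.0 to 3.67 CPM (-3.35 ± 0.63) and ODF3B from 30.8 to 2.88 CPM (-3.47 ± 0.76). The regions of C2orf72 and ODF3B contain other protein-coding genes of the same strand, and that of LDLRAD1 overlaps annotation of LDLRAD1 itself. Chromosome 19 held 11.6% of genes called lower, 5.0% of those called higher and 8.36% of those tested.

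Several of the most abundant downstream signals lie over processed pseudogenes. WFDC11, a protease inhibitor gene of the epididymis, held 16.9% ± 5.21 of 10 kb reads in controls and 9.88% ± 4.23 with knockdown. The groups overlapped, and the fall passed the test (log2 fold change -1.03 ± 0.22, adjusted p = 0.000202). RPS2P7, a processed pseudogene of a ribosomal protein, lies in its region on the same strand, and reads of the 2 cannot be told apart. The regions of RAB3GAP2 (56524 to 29854 CPM, -0.92 ± 0.20) and BEST4 (35613 to 18389 CPM, -0.95 ± 0.20) hold the pseudogenes RPS15AP12 and RPS15AP11. PLEKHA5, with no other annotated gene of its strand there, rose from 24418 to 47622 CPM (0.96 ± 0.22).

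Use of downstream ends relative to the 3′ UTR was tested within each library. The ratio of 10 kb reads to 3′ UTR reads rose in 787 of 9375 genes (8.39%) and fell in 183 (1.95%). Without CTRL sh BR1, BR2 or BR3 it rose in 518, 446 and 520 and fell in 88, 84 and 107. With every library above 2 CPM, the ratio rose in 627 of 5183 genes and fell in 313. The fitted change in ratio was highest for TCEAL8, HEBP2, PRKAG1 and PHF3, but none had a 10 kb read in the controls and the fitted value is no bound. They held 76, 41, 60 and 46 reads with knockdown, and 10 kb reads were at least 9.26-fold, at least 5.53-fold, at least 7.60-fold and at least 5.45-fold higher. TCEAL8 resembles an elongation factor, HEBP2 binds heme, PRKAG1 is a regulatory subunit of AMP-activated kinase and PHF3 binds RNA polymerase II. The region of PRKAG1 contains DDN, a protein-coding gene of the same strand. HEBP2 and PHF3 fell in their 3′ UTRs (-0.86 ± 0.11 and -0.66 ± 0.13). The ratio fell most for TMEM79, a membrane protein of skin (-3.41 ± 0.52, adjusted p = 2.73e-05). Its 10 kb reads were 90.8, 100.2 and 73.5 CPM in the control libraries, 24.2, 14.4 and 25.2 CPM with CPSF1 sh1 and 14.6, 23.3 and 10.1 CPM with CPSF1 sh2. MPV17L2, a mitochondrial protein, followed (-2.75 ± 0.42, adjusted p = 2.94e-05), with 10 kb reads falling from 91.7 to 22.9 CPM and 3′ UTR reads rising from 41.8 to 73.0 CPM. For COPZ1, a coatomer subunit (-2.77 ± 0.78, adjusted p = 0.018), the 10 kb controls were 3.03, 162 and 8.48 CPM, so the fall rests on CTRL sh BR2, and the 10 kb change had adjusted p = 0.947 without CTRL sh BR2. The regions of MPV17L2 and COPZ1 contain long noncoding RNA of the same strand. The ratio of intron to 3′ UTR reads rose in 209 (2.39%) and fell in 113 (1.29%) of 8729 genes, and without CTRL sh BR1, BR2 or BR3 rose in 128, 120 and 124 and fell in 29, 23 and 37. The ratio of CDS to 3′ UTR reads rose in 1 (0.0219%) and fell in 5 (0.11%) of 4556, with 301 at an unadjusted p under 0.05.

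The LNCaP changes were set against those of the same shRNAs in LNCaP95, a derivative that grows without androgen, and in 22Rv1, an androgen-insensitive line. LNCaP95 was selected with 1 μg/mL puromycin and kept in medium free of phenol red, so line and culture cannot be told apart. Line-by-knockdown terms over all 27 libraries called the 3′ UTR change higher in LNCaP than in LNCaP95 for 517 of 11711 genes (4.41%) and lower for 605 (5.17%), 9.58% in all. Against 22Rv1, 232 (1.98%) were higher and 368 (3.14%) lower, 5.12% in all. Without CTRL sh BR3 of LNCaP the 517 became 318, the 232 became 123 and the 368 became 234. Without BR1 the 232 and 368 became 154 and 233. Of 14765 genes in the 10 kb table, 152 (1.03%) had a higher and 210 (1.42%) a lower change in LNCaP than in LNCaP95, and 73 (0.494%) and 67 (0.454%) against 22Rv1. The 73 became 48, 40 and 46 without LNCaP CTRL sh BR1, BR2 and BR3, and the 67 became 42 without BR2.

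Histone genes separated LNCaP from LNCaP95, with medians of 1.16 in LNCaP and -0.32 in LNCaP95 and 8 of 14 members higher in LNCaP. The median in 22Rv1 was 1.2. HIST2H2BE changed by 2.25 in LNCaP, -0.27 in LNCaP95 and 1.63 in 22Rv1 (difference from LNCaP95 2.53 ± 0.31, adjusted p = 1.1e-06). Cholesterol genes had medians of 0.30 in LNCaP, -0.53 in LNCaP95 and -0.47 in 22Rv1, and 10 of 19 were higher in LNCaP than in LNCaP95 and 8 than in 22Rv1. These values pool both shRNAs, and in LNCaP more cholesterol genes were called higher with CPSF1 sh1 alone than with CPSF1 sh2 alone. LSS changed by 0.76 in LNCaP and -0.29 in 22Rv1 (difference 1.05 ± 0.31, adjusted p = 0.0393). All 6 UGT2B genes had a lower change in LNCaP than in LNCaP95 (medians -0.66 in LNCaP and 0.58 in LNCaP95). For UGT2B15 the difference was -2.82 ± 0.21, adjusted p = 3.8e-11.

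Glycolysis genes had a smaller median fall in LNCaP than in LNCaP95, with medians of -0.48 in LNCaP and -1.09 in LNCaP95 and 9 of 20 called higher in LNCaP, and 3 of 20 were lower than in 22Rv1. Hypoxia genes had medians of -1.14 in LNCaP, -1.34 in LNCaP95 and -0.37 in 22Rv1, and 1 of 15 was called different in each comparison, with 6 at an unadjusted p under 0.05 in each and median differences of 0.44 from LNCaP95 and -0.72 from 22Rv1. NDUFA4L2 fell more in LNCaP than in either line (difference -2.68 ± 0.49, adjusted p = 0.000391 for LNCaP95 and -1.89 ± 0.55, adjusted p = 0.0354 for 22Rv1), and so did PLOD2 (-2.06 ± 0.31, adjusted p = 3.35e-05 and -3.09 ± 0.32, adjusted p = 7.55e-08). MAF (2.87 in LNCaP) changed by 0.90 in LNCaP95 and 0.88 in 22Rv1 (difference 1.96 ± 0.28, adjusted p = 1.25e-05 and 1.99 ± 0.33, adjusted p = 0.000283). KLK3 changed by -2.14 in LNCaP, -1.58 in LNCaP95 and 0.35 in 22Rv1, and differed from 22Rv1 (-2.49 ± 0.22, adjusted p = 2.71e-09). Of 77 ribosomal protein genes 0 were called different from either line in 3′ UTRs by this edgeR test, with 3 at an unadjusted p under 0.05 for LNCaP95 and 5 for 22Rv1.

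Differences from LNCaP95 were ranked among called genes with a mean of at least 10 CPM over the 27 libraries. The largest were in NR2F1, a nuclear receptor, CNN3, a calponin, PDK4, a kinase that inhibits pyruvate dehydrogenase, and FAM213A on one side. On the other were FABP5, a fatty acid binding protein, BARX2, a homeobox factor, and PIM1, a kinase. NR2F1 had 55 control and 19 knockdown reads in LNCaP and 90 and 882 in LNCaP95 (difference -4.98 ± 0.62, adjusted p = 1.36e-06). PIM1 fell in LNCaP from 20.6 to 11.5 CPM (-0.83 ± 0.19) and fell more in LNCaP95 (difference 3.35 ± 0.24, adjusted p = 1.42e-11). For PDK4 the LNCaP reads were 3 and 0 against 0 and 10 in LNCaP95. In FAM213A they were 322 and 361 against 0 and 46, and in BARX2 0 and 23 against 739 and 1947. CNN3 had 15 and 2 reads in LNCaP against 1 and 8. FABP5 had 6 and 21 against 12 and 1.

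**Figure D5:**
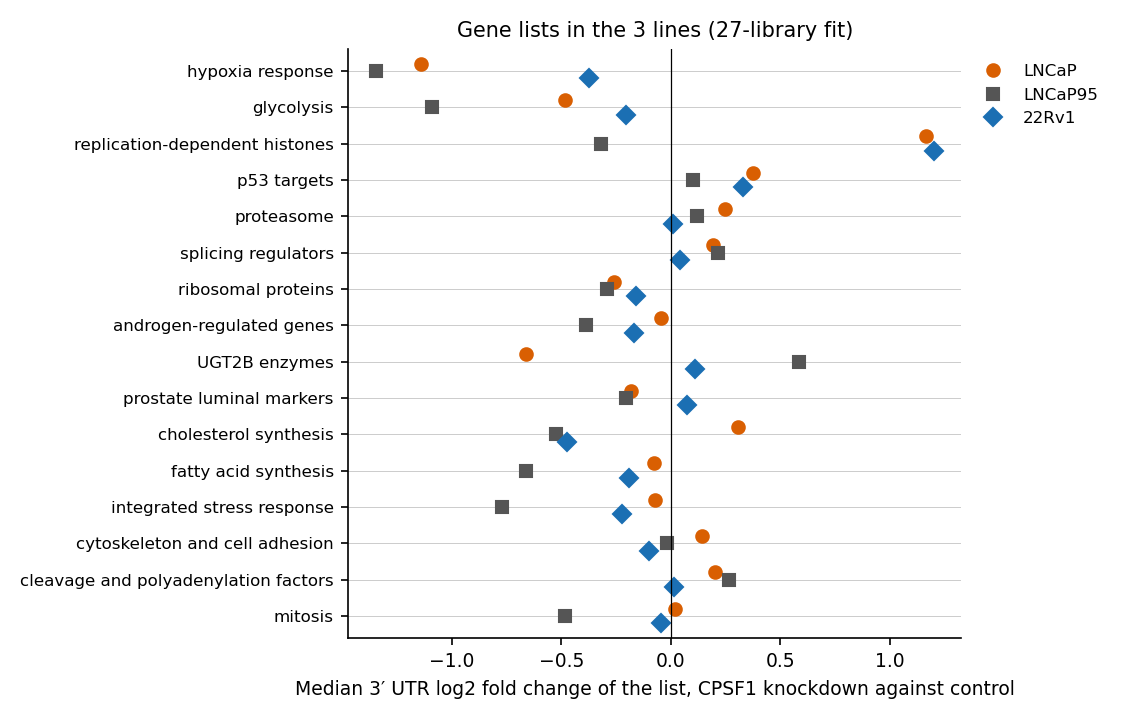
Median 3′ UTR log2 fold change with CPSF1 knockdown of 16 gene lists in LNCaP, LNCaP95 and 22Rv1, from the fit over 27 libraries. Histone medians are 1.16, -0.32 and 1.2 and cholesterol medians 0.30, -0.53 and -0.47 in that order.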

How the data were processed

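Each library held PAC-seq reads primed on poly(A) tails. As the study's methods and processing notes state, the authors removed poly(A) sequence with DPAC, mapped reads to hg19 with HISAT2 2.1.0 and deposited raw read counts per gene made with Subread 2.0.3, assigned by strand and by the last base of the read. Regions were 3′ UTRs lengthened by 300 bases, introns, CDS, and the 10 kb downstream with exons of the same strand removed, from Ensembl GRCh37. Internal A-rich sequence can also prime, and where regions of neighbouring genes overlap a read can count for both.

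Groups came from sample titles, and 0 columns of per-sample values stayed unmapped. Each table was tested alone with edgeR 4.0.16 in R 4.3.3 (TMM factors, quasi-likelihood test, Benjamini-Hochberg threshold 0.05), 6 knockdown against 3 control libraries, over genes with a mean above 2 CPM. Ratios were tested as region-by-knockdown terms with the library as a block, and line differences as line-by-knockdown terms over 27 libraries. Shares of reads were compared by exact permutation (Python 3.11.15, scipy 1.17.1). The script for each test was checked on simulated data. Alternatives were DESeq2 1.42.0, other scalings, filters and groupings, the replicate block, and each library left out.

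Genes were named by size of change among those with adjusted p under 0.05, a mean of at least 10 CPM, the same direction with both shRNAs and no overlap between the groups, and by level, by change in ratio and by difference between lines. From 30 gene lists, the called members with the largest changes were named, and further members in the text were chosen after their values were seen. The gene lists were chosen with earlier results of these data known. Some genes that the rule also selected are not reported here. Gene positions and sequence are from the hg19 reference.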

Additional observations from a re-analysis of the deposited data

Results flagged for a closer look

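The genes below are those named in the report whose change with CPSF1 knockdown differed between LNCaP and another line. The difference was tested by the line-by-knockdown term in edgeR over all 27 libraries, and values are the log2 fold change in LNCaP minus that in the other line, so a positive value is a higher change in LNCaP. Groups of 3 libraries were too small to test a single library for standing apart. CNN3 and FABP5 had few reads in LNCaP and LNCaP95, as given above, so their differences between these lines rest on few reads.

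In 3′ UTRs, the change was higher in LNCaP than in LNCaP95 by 4.47 for FABP5, 3.35 for PIM1, 2.78 for MAP2, 2.66 for HERC3, 2.53 for HIST2H2BE, 2.48 for ANKRD37, 2.08 for NPC1, 1.97 for IGF1R, 1.96 for MAF, 1.90 for HIST1H1C, 1.87 for ID1, 1.79 for HIST1H2BJ, 1.77 for KLF6, 1.60 for CDKN1A, 1.35 for GDF15, 1.30 for ELL2, 1.21 for ACSL3, 1.18 for FKBP5 and 0.85 for INTS6. The change was lower in LNCaP in other genes, with differences of -5.28 for CNN3, -4.98 for NR2F1, -3.35 for FAM65B, -2.82 for UGT2B15, -2.68 for NDUFA4L2, -2.18 for UGT2B17, -2.08 for PLP2, -2.06 for PLOD2, -1.77 for ELOVL6, -0.82 for JUN, -0.73 for IGFBP2 and -0.53 for HOXB13. Against 22Rv1, the 3′ UTR change was higher in LNCaP by 3.50 for MAP2, 3.01 for GRIN3A, 2.85 for C6orf52, 2.59 for ID1, 2.50 for IGFBP3, 2.22 for LAMB3, 2.16 for ELL2, 1.99 for MAF, 1.78 for NPC1, 1.77 for RTN1, 1.64 for ELOVL7, 1.52 for HERC3, 1.42 for FKBP5, 1.13 for MPV17L2, 1.05 for LSS, 1.02 for KLF6, 0.98 for ACSL3 and 0.67 for PSMC2. The change was lower in LNCaP in other genes, with differences of -3.91 for CNN3, -3.68 for FAM65B, -3.62 for BCHE, -3.09 for PLOD2, -2.68 for ENO2, -2.60 for NR2F1, -2.49 for KLK3, -2.24 for UGT2B15, -2.06 for GDF15, -1.89 for NDUFA4L2, -1.71 for PFKP, -1.66 for PLP2, -1.44 for PFKFB4 and -0.63 for HOXB13.

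In the 10 kb table, the difference from LNCaP95 was 3.32 for HIST1H2BK, 2.63 for SARS and 1.54 for PLEKHA5. It was -5.29 for COPZ1, -4.65 for FN1, -3.13 for TMEM79, -2.57 for UGT2B15 and -1.88 for GRHL2. In the 10 kb table, the difference from 22Rv1 was 3.35 for HIST1H2BK, 2.68 for SARS, 2.42 for TXNRD1 and 1.38 for PLEKHA5. It was -4.38 for COPZ1, -3.89 for TMEM79, -3.72 for C2orf72, -3.65 for LDLRAD1, -1.88 for UGT2B15 and -1.29 for ENO2. For COPZ1 the 10 kb reads of the controls rest mostly on CTRL sh BR2. The region of HIST1H2BK contains another histone gene of the same strand. Against LNCaP95, line and culture medium cannot be told apart.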

How the results depend on the processing

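Among named genes, leaving out a control library cost more calls than leaving out any knockdown library. Such a fit keeps 2 controls, and no other cause was tested. Scaling moved the balance of calls in every table, and the 10 kb table, the shallowest, rests on few control reads per gene. Of 5477 values of named genes under 19 alternatives, 5073 stayed on the same side of the threshold in the same direction, 402 kept their direction and lost the call, 2 gained it and 0 reversed. Most losses came with CPSF1 sh2 alone (69) and without CTRL sh BR1 (65), BR2 (60) or BR3 (52).

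Without TMM factors 1383 genes were higher in 3′ UTRs and 331 lower in the 10 kb table. With CPSF1 sh2 alone, 485 were higher and 670 lower in 3′ UTRs, 424 were lower in introns, and 122 were higher and 82 lower in CDS. Scaled to all reads of a library, 537 were higher and 1857 lower in introns, 75 higher in CDS, and 2325 higher and 141 lower in the 10 kb table. The ratio to 3′ UTR reads then rose in 111 and fell in 385 genes for introns, rose in 0 and fell in 1 for CDS, where the count at an unadjusted p is given with the main result, and rose in 1445 and fell in 54 for the 10 kb table. Under the same scaling the change was lower in LNCaP than in LNCaP95 for 387 genes in 3′ UTRs, and in the 10 kb table it was higher for 71 and lower for 500. Against 22Rv1 it was lower for 232 in 3′ UTRs and for 44 in the 10 kb table. Where every library had to exceed 2 CPM, the ratio of CDS reads rose in 2 genes, that of 10 kb reads fell in 313, the 10 kb change was lower in LNCaP than in LNCaP95 for 139, and higher calls were 51.6% of 10 kb calls.

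On the log2 scale the share of 10 kb reads differed by 0.355 (adjusted p = 0.0476, exact permutation test), which passes the threshold that the untransformed share missed. AATAAA alone was found at the ends of 65.0% of higher, 61.9% of lower and 61.8% of all tested 3′ UTR genes, and of 57.3%, 46.4% and 57.2% in the 10 kb table. In the last 100 bases either signal was found for 78.9% of tested 3′ UTR and 73.4% of tested 10 kb genes.

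With 1 library left out, higher and lower 3′ UTR genes numbered 493 to 1232 and 650 to 1371, lower intron genes 348 to 758, higher and lower CDS genes 81 to 212 and 87 to 165, and lower 10 kb genes 439 to 828. The ratio rose and fell in 120 to 246 and 23 to 167 genes for introns, 0 to 2 and 1 to 4 for CDS, and 446 to 831 and 84 to 224 for the 10 kb table. Higher 3′ UTR changes than in LNCaP95 numbered 318 to 551. Against 22Rv1 higher and lower changes numbered 123 to 275 and 233 to 428 in 3′ UTRs, and 40 to 87 and 42 to 71 in the 10 kb table. The difference in the share of reads, never called, ran from -0.27 to 2.57 percentage points for 3′ UTRs and from -0.914 to 0.0885 for CDS.

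The replicate numbers did not pair the samples. Deviations of same-numbered libraries correlated at -0.257 to 0.179 in 3′ UTRs, with 3 of 9 pairs over 0.1, and at -0.0457 to 0.027 in introns, -0.0329 to 0.0447 in CDS and -0.0314 to 0.0254 in the 10 kb table. With the replicate block 746 were higher and 966 lower in 3′ UTRs, 940 and 584 in introns, 159 and 132 in CDS, and 1202 and 645 in the 10 kb table. The ratio with the replicate block fell in 73 genes for introns, and rose in 0 and fell in 2 for CDS. For the 10 kb table the ratio rose in 721 and fell in 156. The 10 kb share had adjusted p = 0.296 by exact permutation within the block. Permuting within the block allows fewer arrangements than the main exact test, so its smallest possible p is larger. It therefore cannot decide whether the 10 kb share differed.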
